A study of Mus musculus with 2 samples.

Results

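The Slit-Robo and netrin guidance genes described here are 9 genes of the 32227 in the count tables: the receptor genes Robo1, Robo2 and Robo3, the ligand genes Slit2 and Slit3, Srgap1, whose protein acts downstream of Robo receptors, the netrin receptor genes Unc5d and Unc5c, and the netrin gene Ntn4. All 9 had counts in both libraries. They were followed across 4 classes of thick ascending limb (TAL) nuclei, which were set by counts of other genes. A barcode counted as TAL with at least 10 counts of Slc12a1, which encodes the Na-K-2Cl cotransporter NKCC2. Among TAL barcodes, macula densa (MD) meant at least 3 counts of Nos1 and Pappa2 together. Of the rest, TAL-β meant at least 2 counts of Tmem52b, then TAL-γ at least 2 counts of Tmem207 and Gpc5 together, and TAL-α all others. The genes were picked with earlier results from these libraries in view, so their levels are a description and carry no test.

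Slit proteins are secreted and bind Robo receptors on the cell surface, and the signal reaches the actin cytoskeleton through adaptors that include the Slit-Robo GTPase-activating proteins. Netrins are secreted, laminin-related proteins, and the UNC5 receptors are known for mediating repulsion from netrin-1. Both systems were first studied in growing axons. In the developing kidney, SLIT2 and ROBO2 restrict where the ureteric bud forms. The macula densa is the plaque of TAL cells that touches the glomerulus of its own nephron, senses luminal salt and signals to the arteriole and the renin-producing cells.

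The nuclei came from the kidney of male B6 mice with the genotype label WT and an age label of 12 without a unit. Per the study's methods the mice carried NKCC2-CreERT2, a tamoxifen-inducible Cre under the NKCC2 gene's control, and the INTACT reporter, which then puts Sun1-sfGFP on the nuclear membrane. All were given 1 mg tamoxifen daily for 5 days and 10 days of induction. The cortex library came from the outer 20% of the kidney's depth and the medulla library from everything below it, deep cortex included. The sources do not say how many animals gave each library. With 1 library per region there is no replicate, so a difference between regions cannot be told apart from a difference between libraries, and every interval below covers counting error only.

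The cortex library held 5442 barcodes that PIPseeker called as nuclei, 5218 of them TAL, and the medulla library 8121 and 7967. The libraries shared 0 barcodes. Median depth per class ran from 1883 to 2668 counts in cortex and from 1995.5 to 2780 in medulla, and MD barcodes were the shallowest in both. The 653 MD barcodes of the cortex were 12.5% of its TAL barcodes, and the 78 of the medulla 0.979%. Cortex held 1493 TAL-β, 248 TAL-γ and 2824 TAL-α barcodes, and medulla 571, 3542 and 3776. The 9 MD markers taken from the study's tables for these same libraries were all highest in the MD class of both libraries, as were all 7 TAL-α markers in theirs. Kcnj10 went against its list for TAL-β in cortex, and Kcnj10 and Rbfox1 against theirs for TAL-γ in medulla. All 6 TAL-γ markers were highest in cortical TAL-γ among the classes of that library. They summed there to 1755 CPM (counts per 1000000), though, against 3692 for the 7 TAL-β markers. The TAL-γ sum was below the TAL-β sum in every cortical class, at 494 and 2298 CPM in cortical TAL-α. In medullary TAL-γ the sums were 6002 and 864. The paper places TAL-γ cells in the medulla only, so the cortical class bears the name by threshold. Slc12a1 itself ran from 10937 to 20514 over the 8 groups of class and library, as CPM (counts of a gene per 1000000 counts of the group). Markers of other cell types were present in every class: 4 of 4 proximal tubule genes summed to between 1538 and 2966 CPM in the cortical classes and between 302 and 488 CPM in the medullary ones. Of the barcodes that met the TAL minimum, 559 in cortex (10.7%) and 373 in medulla (4.68%) passed more than 1 class threshold.

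Promoter sequence was available for 8 of the 9 genes in the RefSeq table for GRCm38.p6, and Unc5d had no entry. The windows of Robo2 and Srgap1 are shown because these were, with Unc5d, the genes with the steepest MD pattern, and that of Ntn4 because its pattern ran the other way. Each line gives the 250 bases before an annotated start, 5′ to 3′ on the gene's strand. Capitals mark matches to the motifs searched on both strands, which were TATAAA (held by 12.4% of the 32851 windows in the table), TCAAGGTCA (0.387%), GTTAAT (6.43%), ATGCAAAT (1.60%) and GCCNNNGGC (13.7%).
Robo2, chr16:74411826-74412075, minus strand: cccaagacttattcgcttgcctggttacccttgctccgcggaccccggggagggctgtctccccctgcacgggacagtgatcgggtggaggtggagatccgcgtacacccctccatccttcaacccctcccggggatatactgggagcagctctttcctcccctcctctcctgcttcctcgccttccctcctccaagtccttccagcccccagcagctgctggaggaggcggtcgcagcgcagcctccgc
Robo2, chr16:75092771-75093020, minus strand: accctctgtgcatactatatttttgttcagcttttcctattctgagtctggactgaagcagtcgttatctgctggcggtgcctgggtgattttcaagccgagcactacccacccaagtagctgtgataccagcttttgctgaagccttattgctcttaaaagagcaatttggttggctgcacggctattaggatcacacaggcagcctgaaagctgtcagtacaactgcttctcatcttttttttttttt
Robo2, chr16:75447294-75447543, minus strand: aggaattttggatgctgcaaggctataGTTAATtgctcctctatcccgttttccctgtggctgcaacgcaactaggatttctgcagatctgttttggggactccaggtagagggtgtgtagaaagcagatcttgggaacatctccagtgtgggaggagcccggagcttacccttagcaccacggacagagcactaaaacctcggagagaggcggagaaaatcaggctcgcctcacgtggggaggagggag
Srgap1, chr10:122047316-122047565, minus strand: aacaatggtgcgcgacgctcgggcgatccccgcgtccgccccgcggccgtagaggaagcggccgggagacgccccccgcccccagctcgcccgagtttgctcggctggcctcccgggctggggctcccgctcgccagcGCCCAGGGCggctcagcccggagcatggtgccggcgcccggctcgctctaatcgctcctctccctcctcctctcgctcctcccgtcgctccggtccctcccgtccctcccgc
Ntn4, chr10:93640799-93641048, plus strand: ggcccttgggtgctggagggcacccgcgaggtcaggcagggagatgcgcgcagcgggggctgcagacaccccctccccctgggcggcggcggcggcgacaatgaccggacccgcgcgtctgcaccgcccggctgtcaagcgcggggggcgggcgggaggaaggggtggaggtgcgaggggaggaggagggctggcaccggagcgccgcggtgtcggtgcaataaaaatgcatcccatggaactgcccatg

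The 3 starts of Robo2 differed in base composition. The first window had 14 CpG dinucleotides and 65.6% G and C, the second 4 and 44.8%, and the third 8 and 53.2%. The third held the single match in Robo2, GTTAAT. Srgap1 had 35 CpG and 76.4% G and C, with 1 match to GCCNNNGGC, and Ntn4 had 26 CpG, 73.2% G and C and no match. The median window of the table had 6 CpG and 52.4% G and C. A letter match is a description of the window, and 3′ counts do not show which Robo2 start was used.

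The 9 genes fell into 3 patterns across the classes. Robo2, Srgap1 and Unc5d were far higher in MD than in any other class of both libraries. Slit2 was present throughout, and Robo1 and Slit3 were moderately higher in MD. Robo3 and Ntn4 were highest in TAL-α. Unc5c was low, and lower in each medullary class than in any cortical one, although medullary MD, at 7 counts, overlapped cortical MD within counting error. The plot of levels by class shows these patterns gene by gene.

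**Figure D1:**
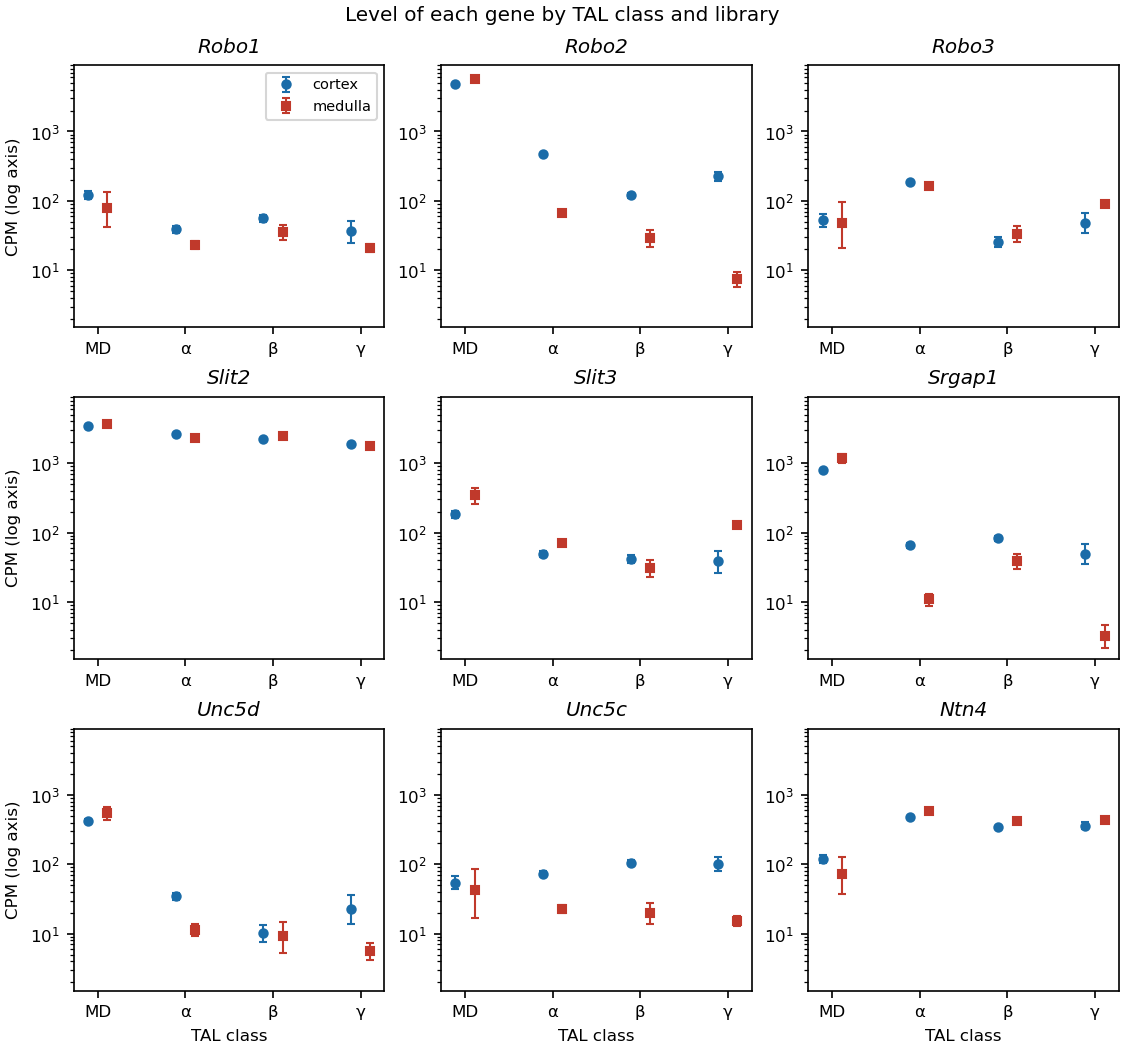
Level of each of the 9 genes as CPM on a log axis in the MD, TAL-α, TAL-β and TAL-γ classes of the cortex library (blue circles) and the medulla library (red squares), with 95% Poisson intervals for counting error. Robo2 stands at 4789 and 5795 CPM in the MD classes and at 7.40 CPM in medullary TAL-γ, whereas Slit2 stays between 1763 and 3662 CPM in all 8 groups.

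Set against length, the order of the genes was different from the order of their CPM. The genes span from 17.8 kb (Robo3) to 1556 kb (Robo2) on GRCm39. Whether 3′ counts scale with span was not tested, so the values below rank counts per length only. Per 100 kb of gene, Slit2 had the highest level of the 9 genes in cortical MD, at 1074 CPM, followed by Robo2 (308), Srgap1 (298) and Robo3 (294), with Ntn4 at 113, Unc5d at 73.3, and Slit3, Robo1 and Unc5c between 14.8 and 30.8. In cortical TAL-α the order per 100 kb was Robo3 (1042), Slit2 (816) and Ntn4 (455), with Robo2 at 30.6 and the other 5 genes between 5.30 and 24.6.

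Robo2 (ENSMUSG00000052516, chr16:73688727-75244270, minus strand, GRCm39) encodes the receptor best known for binding SLIT2 in the kidney. In the cortex library its level was 4789 CPM in MD (95% interval 4684 to 4895), 475 in TAL-α, 225 in TAL-γ and 120 in TAL-β. In the medulla library it was 5795 in MD (5434 to 6173), 67.1 in TAL-α, 29.0 in TAL-β and 7.40 in TAL-γ. The MD classes stood apart from every other class in both libraries, and no neighbours in either order had overlapping intervals. The place of cortical TAL-γ above TAL-β rested on few barcodes. Of its 248 barcodes, 10 lay in a deposited cluster called the MD cluster below, and they held 126 of 186 Robo2 counts. Outside that cluster TAL-γ had 74.2 CPM (56.6 to 95.5), below TAL-β. Nearly every MD barcode had the transcript, 99.5% in cortex and 98.7% in medulla, with a median of 11 and 12 counts per barcode. In cortical MD the 5th to 95th percentile of counts ran from 4 to 25. The share with a count was 27.9% in cortical TAL-α (median depth 2425), 4.71% in medullary TAL-α and 1.13% in medullary TAL-γ. Proximal tubule barcodes are not expected to hold TAL transcripts. Robo2 had a count in 8.43% of 83 such cortical barcodes (median depth 3540) and in 1 of 91 medullary ones (4607). The latter share, 1.10%, had an interval (0.0278 to 5.97) that includes the share in medullary TAL-γ. After each barcode was thinned to 1000 counts, Robo2 was still found in 96.8% of cortical MD and 19.3% of cortical TAL-α barcodes. Thinned in the same way, it was in 0.509% of medullary TAL-γ and 0% of medullary proximal tubule barcodes (0 to 3.97).

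Srgap1 (ENSMUSG00000020121, chr10:121616814-121883220, minus strand), which encodes a GTPase-activating protein that binds Robo receptors, followed the same order at the top. It had 794 CPM in cortical MD (752 to 838), 82.2 in TAL-β, 65.7 in TAL-α and 49.7 in TAL-γ. In the medulla it had 1181 in MD (1021 to 1358), 38.7 in TAL-β, 10.9 in TAL-α and 3.20 in TAL-γ. TAL-β was thus second in both libraries, and its interval did not meet that of TAL-α in either. In cortex the order of these 2 classes turned with an MD threshold of 5 counts. Srgap1 was detected in 75.7% of MD barcodes from cortex and 79.5% from medulla, against 15.2% of cortical TAL-β and 0.649% of medullary TAL-γ barcodes. Medullary proximal tubule barcodes had it in 1 of 91, or 1.10%, with an interval (0.0278 to 5.97) that includes the share in medullary TAL-γ. They were also deeper, with a median of 4607 counts against 2406. Thinned as for Robo2, the share was 0.311% in medullary TAL-γ and 0% in medullary proximal tubule barcodes (0 to 3.97). Cortical proximal tubule barcodes had 6.02% before thinning.

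Unc5d (ENSMUSG00000063626, chr8:29136745-29709664, minus strand), a receptor gene of the UNC5 family, had 420 CPM in cortical MD (389 to 452), 34.5 in TAL-α, 23.0 in TAL-γ and 10.1 in TAL-β. In medulla the level was 548 in MD (441 to 673), 11.3 in TAL-α, 9.11 in TAL-β and 5.63 in TAL-γ. Outside MD, TAL-α and TAL-γ of the cortex had overlapping intervals and TAL-β lay below both. Without barcodes of the MD cluster described below, the intervals of these cortical classes all overlapped. The levels were then 13.0 CPM in TAL-α, 9.89 in TAL-γ and 10.1 in TAL-β. In medulla TAL-β overlapped both of its neighbours. The transcript was found in 45.6% and 53.8% of MD barcodes of cortex and medulla, and in at most 5.28% of the barcodes of any other class, against 1.20% and 2.20% of proximal tubule barcodes.

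The remaining Robo receptors differed from Robo2 and from each other. Robo1 (ENSMUSG00000022883, chr16:72105194-72844378, plus strand), on the same chromosome as Robo2, was low in all classes: 121 CPM in cortical MD, 56.6 in TAL-β, 39.2 in TAL-α and 36.4 in TAL-γ, and 78.3, 35.3, 23.4 and 21.0 CPM in the same classes of the medulla. MD and TAL-β were first and second in both libraries, and TAL-α and TAL-γ did not differ beyond counting error in either. The medullary MD value rests on 13 counts, and its ratio to TAL-β was 2.22 (1.12 to 4.08). Robo3 (ENSMUSG00000032128, chr9:37326965-37344737, minus strand), whose mammalian protein is a divergent member that binds Slits weakly, was highest in TAL-α. It had 185 CPM in cortical TAL-α, 52.2 in MD, 48.5 in TAL-γ and 25.8 in TAL-β, and 161 CPM in medullary TAL-α, 91.4 in TAL-γ, 48.2 in MD and 33.6 in TAL-β. Cortical MD and TAL-γ did not differ beyond counting error. Robo3 was detected in 34.8% of TAL-α barcodes from cortex and 26.9% from medulla, against 9.49% and 10.3% of MD barcodes.

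Of the ligand genes, Slit2 (ENSMUSG00000031558, chr5:48140480-48465075, plus strand) was present in nearly every nucleus. Its level was 3485 CPM in cortical MD, 2649 in TAL-α, 2265 in TAL-β and 1871 in TAL-γ, and 3662 in medullary MD, 2485 in TAL-β, 2282 in TAL-α and 1763 in TAL-γ. Between 87.7% and 100% of the barcodes of a class held a count, with MD first and TAL-γ last in level in both libraries. In proximal tubule barcodes Slit2 was found in 18.1% (cortex) and 6.59% (medulla). It was not confined to TAL barcodes, however. The Slc12a3 barcodes described for Srgap1 had Slit2 in 91.1% of 45 in cortex (1221 CPM) and 100% of 9 in medulla (1970 CPM). The overlapping noncoding gene Gm20475 lies on the same strand and had 917 counts against 82646 for Slit2. Slit3 (ENSMUSG00000056427, chr11:35011789-35602786, plus strand) was lower, with 182 CPM in cortical MD and between 38.8 and 49.5 in the other cortical classes. There the TAL-β to TAL-α ratio was 0.843 (0.711 to 0.997), turning to 1.00 with the deposited clusters, and TAL-γ did not differ from either beyond counting error. In medulla it had 343 CPM in MD (260 to 445), 127 in TAL-γ, 70.7 in TAL-α and 30.7 in TAL-β, a spread among the classes outside MD that the cortex did not show. Proximal tubule barcodes of the cortex had 48.2 CPM of Slit3, near the cortical classes outside MD, with a count in 10.8%. Those of the medulla had 11.5 CPM.

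Unc5c (ENSMUSG00000059921, chr3:141170977-141540685, plus strand), the other UNC5 receptor gene, did not mark a TAL class. It had 105 CPM in cortical TAL-β, 102 in TAL-γ, 73.6 in TAL-α and 54.6 in MD, and between 15.5 and 42.2 CPM in the medullary classes, of which the MD value rests on 7 counts. Proximal tubule barcodes had more of it than any TAL class: 337 CPM in cortex, with a count in 55.4% of barcodes, and 199 CPM in medulla, with a count in 27.5%. When TAL-α barcodes were split into 4 groups by depth, the deepest group of the cortex had 149 CPM of Unc5c and the other 3 between 16.9 and 23.1, and in medulla the deepest had 51.1 and the others between 6.53 and 9.06. With barcodes that held markers of other cell types left out, the MD to other TAL ratio of Unc5c in cortex was 0.924 in place of 0.627. With the deposited clusters that ratio was 0.307, past 2-fold lower. Whether proximal tubule RNA accounts for the TAL values of Unc5c was not tested.

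Ntn4 (ENSMUSG00000020019, chr10:93476543-93583069, plus strand), which encodes netrin-4, a secreted protein of basement membranes, ran opposite to Robo2. Its level was 485 CPM in cortical TAL-α, 359 in TAL-γ, 341 in TAL-β and 120 in MD, and 580, 430, 416 and 72.3 CPM in the same classes of the medulla. The order of the classes was the same in both libraries, TAL-γ and TAL-β did not differ beyond counting error in either, and MD stood apart at the bottom. A count was found in between 47.2% and 58.5% of the barcodes of the other classes, and in 11.6% of cortical and 11.5% of medullary MD barcodes.

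Against all other TAL barcodes of the same library, MD barcodes had more than a 10-fold excess of 3 of the 9 genes in both libraries. Robo2 was higher 14.6-fold in cortex (14.1 to 15.1) and 157-fold in medulla (142 to 173). Srgap1 was higher 11.2-fold (10.3 to 12.2) and 120-fold (97.8 to 147), and Unc5d 17.0-fold (14.9 to 19.3) and 64.0-fold (49.1 to 82.9). These 3 genes ranked 35, 47 and 25 by ratio among the 15348 genes with at least 20 counts in the cortex comparison, and 7, 11 and 21 among 15196 in the medulla. The larger medullary ratios came with lower levels outside MD: Robo2 had 328 CPM in cortical and 37.0 CPM in medullary barcodes outside MD. Over the alternatives tried, the cortical ratio ran from 11.1 to 27.6 for Robo2, 8.92 to 16.4 for Srgap1 and 11.7 to 37.5 for Unc5d. The lowest values came at an MD threshold of 5 counts, where Srgap1 was below 10-fold. The highest came without barcodes of 1 or 2 counts of Nos1 and Pappa2. The medullary ratio of Robo2 reached 238 with the deposited clusters.

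Slit3 was higher 3.97-fold in cortex and 3.72-fold in medulla, and Robo1 2.66-fold and 3.36-fold. Slit2 was higher 1.42-fold (1.38 to 1.46) and 1.77-fold (1.63 to 1.92). Robo3 was lower in MD, with a cortical ratio of 0.443 and a medullary one of 0.405, and so was Ntn4 (0.283 and 0.145). With the deposited clusters in place of the threshold the Ntn4 ratios were 0.0494 and 0.0963. Unc5c had ratios of 0.627 (0.501 to 0.776) in cortex and 2.19 (0.874 to 4.55) in medulla, the latter 0.406 with an MD threshold of 5 counts. The cortical one was 0.307 with the deposited clusters. Of the 9 genes, 5 were at least 2-fold higher in cortical MD and 2 at least 2-fold lower, where 7.26% and 7.93% of all genes with enough counts were past the same folds. In medulla 6 were higher and 2 lower, against 17.8% and 8.5% of all genes, with Unc5c, at 7 counts, among the 6. The median ratio was 2.66 over the 9 genes and 1.02 over all genes in cortex, and 3.36 and 1.45 in medulla, where genes with 0 counts among the 78 MD barcodes enter at the 3-count limit.

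**Figure D2:**
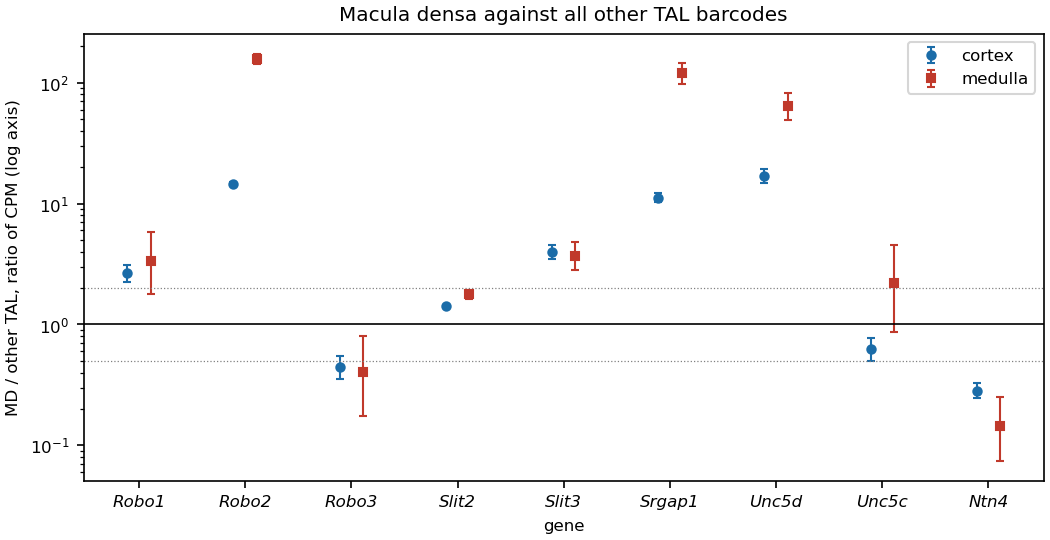
Ratio of CPM in MD to CPM in all other TAL barcodes for each gene on a log axis, in cortex (blue circles) and medulla (red squares), with 95% intervals for counting error and dotted lines at 2-fold in each direction. Robo2, Srgap1 and Unc5d lie above 10 in both libraries, Ntn4 and Robo3 below 0.5 in both, and Unc5c on opposite sides of 1.

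The Robo2 level followed the count of the class-defining genes on both sides of the threshold. In cortex Robo2 had 173 CPM in barcodes with 0 counts of Nos1 and Pappa2, 1421 with 1 count, 3386 with 2, 4040 with 3 to 4, 4611 with 5 to 9 and 5857 with 10 or more. In medulla the same series was 25.1, 492, 3445, 4289, 5543 and 7155 CPM. Barcodes just outside the MD threshold, with 2 counts, thus came close to those just inside it, and they numbered 133 in cortex and 11 in medulla. Srgap1 had 500 CPM just outside and 704 just inside in cortex, and 303 and 878 in medulla. Unc5d had 344 and 380 in cortex, and 331 and 502 in medulla. Ntn4 went the other way, from 435 CPM at 0 counts to 60.8 at 10 or more in cortex, and from 499 to 70.3 in medulla. Next to the threshold, cortical Ntn4 had 143 CPM just outside and 185 just inside, with overlapping intervals. Medullary Ntn4 had 358 just outside, from 13 counts, and 100.3 just inside, from 4 counts.

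**Figure D3:**
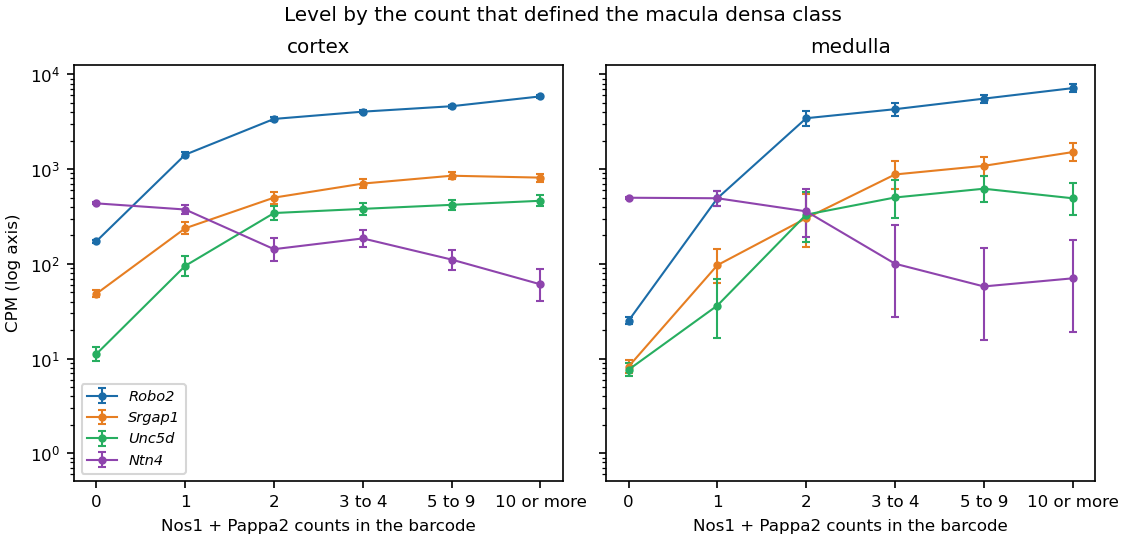
CPM on a log axis of Robo2, Srgap1, Unc5d and Ntn4 in TAL barcodes grouped by their counts of Nos1 and Pappa2 together, in cortex and medulla, with 95% Poisson intervals. Robo2 climbs from 173 to 5857 CPM in cortex and from 25.1 to 7155 CPM in medulla, while Ntn4 is lower in the last group than in the first. At 2 counts Robo2 stands near its level at 3 to 4 in both libraries, whereas medullary Srgap1 and Ntn4 differ more between these groups.

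Much of the Robo2, Srgap1 and Unc5d signal outside the MD class lay in few barcodes. The deposited clustering was made from all genes and therefore used these genes too. The name MD cluster was given here, in each library, to clusters in which most TAL barcodes passed the MD threshold. It is therefore not independent of that threshold. In cortex 160 of the 2824 TAL-α barcodes (5.67%) were in it and held 46.7% of the TAL-α counts of Robo2, 51.8% of those of Srgap1 and 63.6% of those of Unc5d, but 0.337% of those of Ntn4. Outside the MD cluster the cortical TAL-α level was 263 CPM for Robo2, 32.8 for Srgap1 and 13.0 for Unc5d. In medulla 27 TAL-α barcodes held 43.2% of the Robo2 counts, and the level outside them was 38.3 CPM. No TAL-β barcode lay in an MD cluster. Conversely, 116 cortical barcodes past the MD threshold lay in other clusters, with a median depth of 4858.5 counts, 1958 CPM of Robo2 and 277 CPM of Ntn4, where the whole MD cluster had 6654 and 21.0 CPM.

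Depth split the cortical MD class in a like way. Of 4 groups by depth, the 3 shallower had between 6439 and 6867 CPM of Robo2 and between 10.5 and 38.8 CPM of Ntn4, and the deepest had 2801 and 224 CPM. In the medulla the 4 groups ranged from 4793 to 7348 CPM of Robo2. In cortical TAL-α the shallowest group had 1540 CPM of Robo2 and the deepest 204. Whether barcodes that hold more than 1 nucleus, or MD nuclei with few Nos1 and Pappa2 counts, account for these values was not tested.

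Free RNA carried the same genes. Barcodes that were not called and had at most 100 counts held 687 CPM of Robo2 in cortex and 83.1 in medulla, 116 and 15.6 CPM of Srgap1, and 55.3 and 11.2 CPM of Unc5d. These levels were above those of cortical TAL-α, TAL-β and TAL-γ for all 3 genes. In medulla they were above those of TAL-α for Robo2 and Srgap1, with overlapping intervals. Medullary TAL-β, at 38.7 CPM of Srgap1, was above the free RNA level of that gene. The share of free RNA in the levels outside MD was not tested. Slit2 had 2246 CPM and 1751 CPM in the same barcodes, and Ntn4 352 CPM and 455 CPM. Slit3 had 53.0 CPM and 81.6 CPM there, and Robo1 64.7 CPM and 37.9 CPM. The cortical classes outside MD were below these levels for both genes, some with overlapping intervals. Medullary TAL-γ was above the free RNA level of Slit3.

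Within MD the 3 genes were found together about as often as their separate shares multiply to. In cortical MD 35.5% of barcodes (31.9 to 39.3) held a count of each of Robo2, Srgap1 and Unc5d, against a product of 34.4%. Robo2 was in nearly every MD barcode, so this share had to lie near that of Srgap1 with Unc5d. That pair was in 35.7%, against a product of 34.5%. In cortical TAL-α all 3 genes were in 2.23% of barcodes (1.72 to 2.85) against a product of 0.129%, and in medullary TAL-α in 0.185% against 0.00156%. MD cluster barcodes held between 46.7% and 63.6% of the cortical TAL-α counts of each gene. Robo2 and Ntn4 were found together in 11.5% of cortical TAL-α barcodes (10.3 to 12.7), below the product of 14.6%. Robo2 and Slit2 were each in nearly every MD barcode, so nearly all MD barcodes had to hold both. The shares with both were 97.5% in cortex and 98.7% in medulla, against products of 97.6% and 98.7%.

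Between the libraries, Robo2 and Srgap1 were lower in medulla in every class except MD, and Unc5d in TAL-α and TAL-γ. In TAL-α the medulla to cortex ratio was 0.141 for Robo2 (0.129 to 0.154), 0.166 for Srgap1 (0.133 to 0.205), 0.327 for Unc5d (0.259 to 0.411) and 0.310 for Unc5c (0.264 to 0.363). Robo1 had 0.596, Slit2 0.862 and Robo3 0.871, and Ntn4 had 1.20 and Slit3 1.43. Of the 9 genes, 4 were at least 2-fold lower in medulla and 0 at least 2-fold higher, where 11% and 2.02% of all genes were. Leaving out barcodes with 1 or 2 counts of Nos1 and Pappa2, a choice made after seeing the data, moved the ratio to 0.190 for Robo2, 0.264 for Srgap1 and 0.707 for Unc5d. Leaving out barcodes with markers of other cell types moved that of Unc5c to 0.594. For Robo2, Srgap1, Unc5d and Unc5c, free RNA was lower in medulla too. It held 687 CPM of Robo2 in cortex and 83.1 in medulla, and 116 and 15.6 CPM of Srgap1. Unc5d had 55.3 and 11.2 CPM there, and Unc5c 84.3 and 26.2 CPM. The share of free RNA in the TAL-α ratios was not tested.

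In the MD class set by the threshold the direction was the other way for Robo2, Srgap1 and Unc5d. The medulla to cortex ratio was 1.21 for Robo2 (1.13 to 1.29), 1.49 for Srgap1 (1.27 to 1.73) and 1.31 for Unc5d (1.04 to 1.63). In the deposited MD clusters only Srgap1 kept this direction, with 1058 CPM in cortex and 1292 in medulla. Robo2 had 6654 and 6280 CPM there and Unc5d 592 and 550, each with overlapping intervals. Slit3, higher in medullary TAL-α too, had 1.88 in MD (1.39 to 2.51), and Unc5c had 0.773 (0.302 to 1.66). Of the 9 genes 0 passed 2-fold in either direction in MD, where 3.91% of all genes were higher and 12% lower. In TAL-β the ratio was 0.242 for Robo2, 0.471 for Srgap1, 0.189 for Unc5c and 0.899 for Unc5d (0.479 to 1.60). There 3 of the 9 genes were at least 2-fold lower and 0 higher, against 12% and 1.27% of all genes. In TAL-γ, whose cortical barcodes bear the name by threshold only, Robo2 had a ratio of 0.0328 and Srgap1 of 0.0644. Of the cortical TAL-γ counts, 67.7% of those of Robo2 and 56.1% of those of Srgap1 lay in 10 barcodes of the MD cluster. Slit3 was 3.27-fold higher in medullary TAL-γ (2.30 to 4.81), the one gene of the 9 past 2-fold in that direction in any class. Another 4 were at least 2-fold lower there, where 6.54% of all genes were higher and 13.4% lower.

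**Figure D4:**
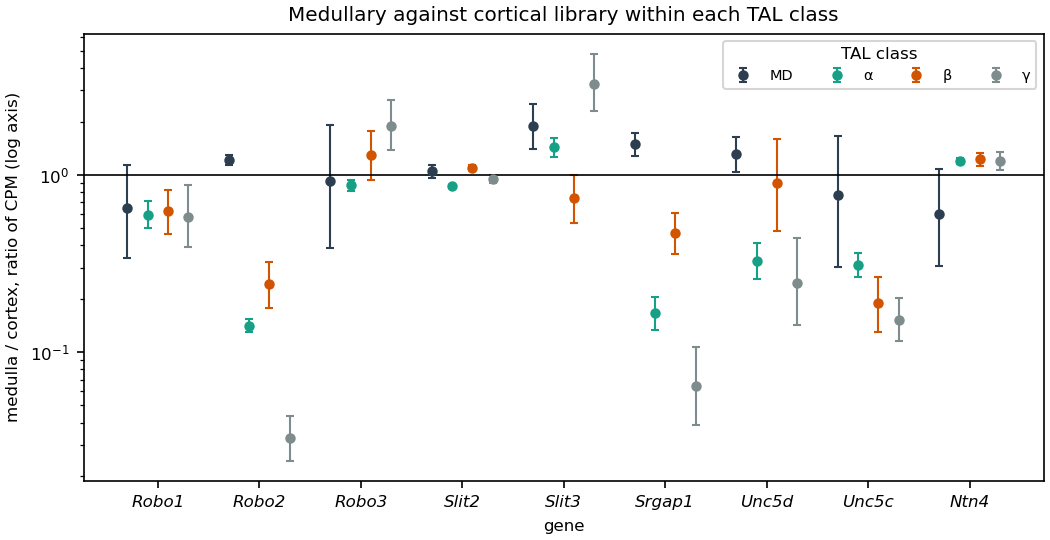
Medulla to cortex ratio of CPM for each gene on a log axis, in the MD, TAL-α, TAL-β and TAL-γ classes, with 95% intervals for counting error. Robo2 and Srgap1 lie above 1 in MD and below 0.5 in the other 3 classes, and Slit3 reaches 3.27 in TAL-γ.

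Among the classes outside MD, TAL-β had less Robo3, Robo2 and Ntn4 than TAL-α and more Robo1 and Srgap1, in both libraries. The TAL-β to TAL-α ratio of Robo3 was 0.139 in cortex and 0.208 in medulla, that of Robo2 0.252 and 0.433, and that of Ntn4 0.702 and 0.717. Robo1 had 1.45 and 1.51, and Srgap1 1.25 and 3.56. In cortex 3 genes were at least 2-fold lower in TAL-β and 0 higher, where 2.29% and 2.71% of all genes were. In medulla 3 were lower and 1 higher, against 5% and 3.25%. The cortical 3 were Robo3, Robo2 and Unc5d (0.294). With the deposited clusters the cortical ratio was 0.456 for Robo2 and 0.779 for Unc5d, the latter no longer past 2-fold. The Srgap1 ratio in cortex turned to 0.875 with an MD threshold of 5 counts, and was 2.70 without the barcodes of 1 or 2 counts of Nos1 and Pappa2. The medullary Robo2 ratio was 0.997 once barcodes past more than 1 threshold were left out, and that of Srgap1 then 7.10.

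TAL-γ had less Robo3 than TAL-α in both libraries, the ratio being 0.262 for cortex and 0.567 for medulla. Ntn4 was lower too, at 0.740 in both. In medulla, where 3542 barcodes were TAL-γ, Robo2 had a ratio of 0.110 and Srgap1 of 0.294, and Slit3 was 1.79-fold higher (1.63 to 1.98). In the 248 cortical TAL-γ barcodes, which bear the name by threshold only, the Slit3 ratio was 0.784, with an interval that includes 1 (0.529 to 1.13). At the thresholds, the medullary barcodes with 1 count of Tmem207 and Gpc5 had 92.9 CPM of Slit3 and those with 2 had 108 CPM. Between 1 and 2 counts of Tmem52b, Robo3 went from 75.9 to 37.6 CPM in cortex and from 74.5 to 53.5 CPM in medulla. In cortex 2 genes were at least 2-fold lower in TAL-γ and 0 higher, where 6.61% and 4.01% of all genes were. In medulla 3 were lower and 0 higher, against 2.98% and 1.35%. The medullary 3 were Robo2, Srgap1 and Unc5d (0.498). With the deposited clusters the ratio was 0.515 for Srgap1 and 0.621 for Unc5d, neither past 2-fold. At the Slc12a1 minimum, cortical barcodes just below it, with 5 to 9 counts, had 651 CPM of Robo2 in 55 barcodes, and those just above, with 10 to 14 counts, 1732 CPM in 155.

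Most other genes of the guidance systems differed little between MD and the rest. Of 32 other Slit-Robo genes with at least 20 counts in the cortex comparison, 3 were at least 2-fold higher in MD and 1 lower, Robo4, which had 1 MD count. The 3 were Slit1, the remaining Slit ligand (10.8 against 2.50 CPM, 4.32-fold), Flrt2, whose membrane protein binds UNC5 receptors (2.92-fold, 115 against 39.4 CPM), and Sdc2, a syndecan that carries heparan sulfate (2.10-fold, 164 against 78.0 CPM). Of 21 other netrin genes 1 was higher, the kinase gene Fyn (2.44-fold), and 0 lower. In medulla 3 and 2 of 32 Slit-Robo genes and 6 and 0 of 21 netrin genes were past 2-fold higher and lower. Flrt2 was 8.42-fold (16 MD counts) and Fyn 11.2-fold higher there (6 MD counts). Against the 7.26% and 17.8% of all genes that were higher in MD of cortex and medulla, these lists had 9.38% and 9.38% (Slit-Robo) and 4.76% and 28.6% (netrin). The median ratio was 1.06 for the Slit-Robo and 1.10 for the netrin list in cortex, and 1.12 and 1.61 in medulla.

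Of 45 genes from the semaphorin, plexin, neuropilin and ephrin families, 9 were at least 2-fold higher in cortical MD and 2 lower, where 7.26% and 7.93% of all genes were. The median ratio was 1.05, against 1.02 over all genes. Sema6a, a transmembrane semaphorin that is also on the MD marker list, was higher 7.99-fold (365 against 45.7 CPM). Sema3a, a secreted semaphorin, was higher 3.43-fold, and Nrp1, which encodes a semaphorin co-receptor, 2.69-fold at 375 against 140 CPM. The Eph receptor gene Epha7 was higher 3.24-fold and the ephrin gene Efna4 2.03-fold. The plexin gene Plxnb1 was lower, with a ratio of 0.455. In medulla Sema6a was 31.4-fold higher (72 MD counts), Sema3a 15.2-fold (14 MD counts), and Plxnb1 had a ratio of 0.336 (4 MD counts). Of 41 such genes 14 were higher and 1 lower in medullary MD, where 17.8% and 8.5% of all genes were, and the median ratio was 2.06 against 1.45. Between the libraries, in TAL-α, 1 Slit-Robo gene of 32 was at least 2-fold higher in medulla and 3 lower, and 0 of 21 netrin genes higher and 4 lower. Of 42 genes of the other families 0 were higher and 8 lower, with a median ratio of 0.734. Over all genes 2.02% were higher and 11% lower in this comparison, with a median of 0.935. The lists were set with earlier results of these data known, and nothing particular to them was tested.

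**Figure D5:**
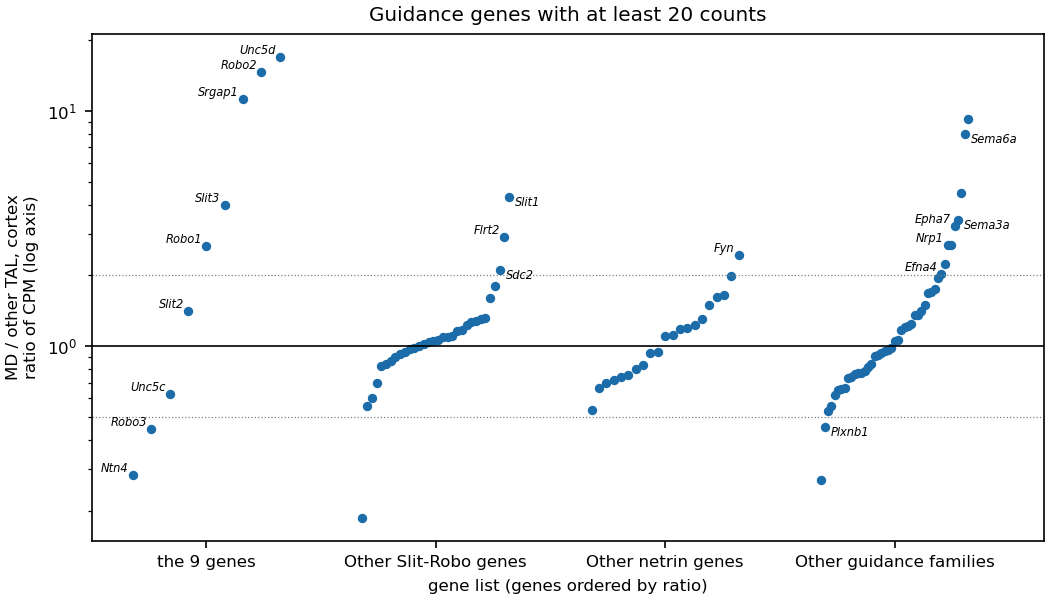
Ratio of CPM in MD to CPM in other TAL barcodes of the cortex on a log axis for the 9 genes and for 3 lists of other guidance genes with at least 20 counts, ordered by ratio within each list, with dotted lines at 2-fold. Unc5d, Robo2 and Srgap1, between 11.2 and 17.0, lie above every gene of the other lists, of which those past 2-fold with at least 50 counts are named, and most others lie near 1.

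Over the 8 groups of class and library, the genes whose log2 level most resembled that of Robo2 by Pearson correlation, among 8277 with at least 500 counts, were Ncam1, a neural cell adhesion molecule gene (r = 0.992), Aebp1 (0.992) and A330023F24Rik (0.991). Srgap1 was most like Maml3, Mt2 and Cirbp (each 0.995), and Unc5d most like Prr16 (0.995), Hibadh (0.995) and Arid5b (0.991). Ntn4 was most like Il17re, Pheta1 and Mfap3l (between 0.993 and 0.995). Among the 9 genes, Robo2 correlated with Unc5d (0.957) and Srgap1 (0.943) and inversely with Ntn4 (-0.821). The nearest to Slit2 was Unc13b (0.995), to Slit3 Stk38 (0.983), to Robo1 Ints6l (0.987), to Robo3 Jdp2 (0.961) and to Unc5c Slc36a1 (0.994). The 8 groups come from only 2 libraries and share their depth and free RNA, so these values are a description.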

How the data were processed

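Single nuclei sorted for GFP were measured by PIPseq, with 1 library from cortex and 1 from medulla. The authors ran PIPseeker 3.3.0 against GRCm39. Its raw transcript counts were deposited for each barcode and used here; they precede the authors' doublet removal, ambient RNA correction, normalization and integration. Per the labels, bcl2fastq and Seurat 4.4.0 were also used. The filtered matrices of both libraries were read, the classes were set by the stated thresholds, and counts were summed per class and library (Python 3.11.15, numpy 2.4.6, scipy 1.17.1, pandas 2.3.3). CPM carry exact Poisson, ratios conditional binomial and shares Clopper-Pearson intervals, all at 95% and for counting error only. Nuclei are not replicates and each region is 1 library, so no test was made. Ratios over all genes needed at least 20 counts, and a class at 0 was set to 3 counts. The interval was checked on simulated counts. All 9 genes are named, with other guidance genes past 2-fold in cortical MD at 50 or more counts and the 3 genes most correlated with each. The members and lists were chosen with earlier results of these data known. Doublets were kept; Scrublet (scanpy 1.11.5), TMM factors (edgeR 4.0.16), other thresholds, filters and the deposited clusters were alternatives. Deposited UMAP coordinates were not used. Of the netrin list, 1 gene is not reported here and was left out of its counts.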

Additional observations from a re-analysis of the deposited data

Results flagged for a closer look

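Several ratios pointed in opposite directions in the libraries, and none of these differences was tested. Slit2 had a TAL-β to TAL-α ratio of 1.09 in medulla and 0.855 in cortex. Slit3 had a TAL-γ to TAL-α ratio of 1.79 in medulla and 0.784 in cortex. Unc5c had an MD to other TAL ratio of 2.19 in medulla, from 7 MD counts, and 0.627 in cortex. Its TAL-β to TAL-α ratio was 0.873 in medulla and 1.43 in cortex, and its TAL-γ to TAL-α ratio 0.678 and 1.38.

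The medulla to cortex ratio pointed one way in MD and the other in TAL-α for 5 genes, again without a test. It was 1.21 in MD and 0.141 in TAL-α for Robo2, 1.49 and 0.166 for Srgap1, 1.31 and 0.327 for Unc5d, and 1.05 and 0.862 for Slit2. For Ntn4 it was 0.603 in MD, from 12 counts in medulla, and 1.20 in TAL-α. With the deposited MD clusters only Srgap1 kept its direction in MD, at 1058 CPM in cortex and 1292 in medulla. Robo2 had 6654 and 6280 CPM there, Unc5d 592 and 550, Slit2 4381 and 4075, and Ntn4 21.0 and 48.1.

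Barcodes that PIPseeker did not call as nuclei held the same genes. In the cortex 512 of these had at least 10 counts of Slc12a1, and 49 of them (9.57%) passed the MD threshold at a median depth of 1153 counts. These 49 had 7595 CPM of Robo2, 1473 CPM of Srgap1 and 484 CPM of Unc5d. In the medulla 1 of 447 such barcodes passed the threshold.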

How the results depend on the processing

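The MD to other TAL ratio of Robo2, 14.6 in cortex and 157 in medulla, was 18.6 and 174 with an MD threshold of 2 counts, 11.1 and 138 with a threshold of 5, 23.8 and 238 with the deposited clusters, 13.5 and 125 with TMM factors, and 13.1 and 138 as a mean of CPM per barcode. Leaving out barcodes with 1 or 2 counts of Nos1 and Pappa2, chosen after seeing the data, gave 27.6 and 231. In cortex it was 16.5 without Scrublet doublets and 13.4 without barcodes that held markers of other cell types. The medulla to cortex ratio of Robo2 in TAL-α, 0.141, was 0.165 and 0.122 with MD thresholds of 2 and 5, 0.127 with a TAL-γ threshold of 3 and as a mean of CPM per barcode, 0.120 without barcodes of other markers, and 0.190 without those of 1 or 2 counts. No Robo2 ratio of these 3 changed direction. The counts of genes past 2-fold in these 3 comparisons, though not in all others, stayed within 1.5 times.

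Of 63 ratios, 24 moved over 1.5 times under some alternative and 9 crossed 1. Of those whose own interval lay off 1, 3 turned. The TAL-β to TAL-α ratio of Srgap1 in cortex went from 1.25 to 0.875 with an MD threshold of 5, and that of Slit3 from 0.843 to 1.00 with the deposited clusters and 1.03 without barcodes of 1 or 2 counts. The TAL-γ to TAL-α ratio of Unc5c in cortex went from 1.38 to 0.871 without barcodes of other markers. The cause was not tested. Scrublet's automatic threshold called 3 medullary barcodes, so the top 5% (406) were removed there, and 359 in cortex.

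No paired analysis was possible because each region is 1 library, and no replicate could be left out. The small number of barcodes limits the medullary MD class of 78 most: Robo1, Robo3, Unc5c and Ntn4 rest there on 7 to 13 counts.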
